A study of Mus musculus with 6 samples.

Results

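The set described here held 42 array probes, for 39 gene names, whose signal rose in order from the EPC line to the EPC_acLDL line and from there to the EPC_Late line. These probes were chosen by their measured values: each array's intensities were divided by the array's median, a probe had to be detected on all 6 arrays (detection p-value below 0.01), both EPC_acLDL values had to lie above both EPC values, both EPC_Late values above both EPC_acLDL values, and the EPC_Late mean had to be at least 1.5 times the EPC mean. Of the 25697 probes on the array, 902 were detected on all 6 arrays, and the 42 were 4.66% of these. Because the rule used all 3 comparisons, the members' values below are a description and carry no test. The standard errors (SE) given for them come from the limma fit described below. They pool the spread between arrays over the 3 lines, are drawn toward that of all fitted probes, and cover no other variation. In the median-scaled values that chose the set, replicate 1 lay above replicate 2 for 87.5% of the 902 probes in EPC, 93.1% in EPC_acLDL and 75.7% in EPC_Late (33, 36 and 36 of the 42 members). After background removal these shares were 49.1%, 49.2% and 49.9%.

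The 3 mouse cell lines came from lung tissue of athymic nude mice. The cells were sorted as endothelial progenitor cells (EPC), positive for Flk-1 and the stem cell marker c-Kit and negative for CD45. They were grown in mouse endothelial medium with serum. EPC and EPC_acLDL were harvested at passage 3 to 6 and EPC_Late at passage 16 to 20, with 2 arrays a line. EPC_acLDL differed from EPC by a selection: cells were given fluorescent acetylated low density lipoprotein (acLDL), which endothelial cells take up, and the positive cells alone were replated. The methods describe experiments run independently and in duplicate, while the legend of the array data counts samples and duplicates differently. Which of these the 2 arrays of a line are is not settled, so that the spread between them may be technical. By the study's text EPC_Late was the EPC_acLDL line carried to high passage, so that EPC_Late differs from EPC by the sort for uptake as well as by passage, and these cannot be told apart in that comparison. The 3 comparisons share arrays.

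For several genes the direction read from the labels goes against the study's own table of regulated genes. That table places Sox2 and Ybx3 (under the older name Csda) among the genes that fell against EPC in both other lines, and Vamp2 among those that fell in EPC_Late, whereas the deposited columns gave higher values for these genes. For Sox2 the study's folds have the same size as those below with the direction turned. The opposition was not limited to the set: Cadm1 (listed as Igsf4a) stands in the table as lower than in EPC in both other lines, and by the labels it was higher. Its differences after background removal, a step explained below, were 2.69 in EPC_acLDL and 2.90 in EPC_Late (log2). Srrt (listed as Ars2), Ctps, Srsf1, Srsf2, Tyms, E2f1 and Pgp stand in the table as higher in EPC_Late than in EPC, and by the labels they were lower. Their background-removed differences were -2.30 and -1.64 for the Srrt probes, -1.77 for Ctps, -1.31 and -1.24 for Srsf1, -1.15 for the brighter Srsf2 probe, -1.25 for Tyms, -1.14 for E2f1 and -0.78 for Pgp (log2). The opposition did not hold for every gene: Serbp1 stands in the table as lower in EPC_Late than in both other lines, and by the labels it was lower too. Its differences were -1.43 from EPC and -1.22 from EPC_acLDL (log2). H3f3a, listed as higher in EPC_Late than in both, lay close to equal. Its differences were -0.14 and -0.08. These are all of the table's genes that had a probe detected on every array, and the others could not be compared at that limit. Which direction holds was not settled by the sources used here. Every direction below is that of the labels.

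Sox2 is known for keeping stem cells undifferentiated, together with other transcription factors. Secreted matrix proteins such as Sparc and the laminins shape the surface on which endothelial and mesenchymal cells grow. MHC class I proteins present peptides at the cell surface and, like the small membrane proteins of the Ifitm family, are raised by interferons.

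At the detection limit of 0.01 an array had 1116 to 1227 probes, and the array medians ran from 304.6 to 358.7 intensity units, about the level of the negative controls. Most endothelial markers were not measurable, in any line: of 18 endothelial marker genes with 29 probes, 27 probes lay above background on no array, Pecam1, Cdh5, Vwf, Tie1 and Tek included, and Kdr, the gene of Flk-1, was the single one above background (detection p-value below 0.05) on all 6. Of 11 blood cell genes Csf1r, of 11 lung epithelium genes Cdh1, and of 12 mesenchyme and smooth muscle genes Acta2, Col1a2, Des and Sparc were above background on all 6 arrays. Only Sparc of these marker genes was in the set.

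Sox2, the HMG-box transcription factor of embryonic and neural stem cells, read 3.53 and 3.29 times the array median in EPC, 13.4 and 11.3 times in EPC_acLDL, and 16.8 and 15.2 times in EPC_Late. The 3 lines did not overlap, EPC lay far below the other lines, and EPC_acLDL was already near the EPC_Late level. The ratio of means was 4.69 for EPC_Late over EPC, 3.62 for EPC_acLDL over EPC and 1.29 for EPC_Late over EPC_acLDL.

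The plain ratio understates the change of dim probes, since an Illumina intensity contains the background of the array. The background was therefore also removed with the neqc function of limma, which estimates it from the detection p-values and quantile normalizes on the log2 scale, and differences on that scale are called background-removed below. For Sox2 they were 2.01 (SE 0.11) from EPC to EPC_acLDL and 0.66 (SE 0.11) from EPC_acLDL to EPC_Late. Promoter bases are shown for a pair of members with large first-step shares in median-scaled values and a pair with small ones, so that the letters before their start can be compared. For Sox2 and Ybx3, of the first kind, the 250 bases before the RefSeq start are chr3:34649745-34649994 on the plus strand and chr6:131388451-131388700 on the minus strand (GRCm38.p6, 5′ to 3′), with capitals for matches to the motif letters searched.
Sox2: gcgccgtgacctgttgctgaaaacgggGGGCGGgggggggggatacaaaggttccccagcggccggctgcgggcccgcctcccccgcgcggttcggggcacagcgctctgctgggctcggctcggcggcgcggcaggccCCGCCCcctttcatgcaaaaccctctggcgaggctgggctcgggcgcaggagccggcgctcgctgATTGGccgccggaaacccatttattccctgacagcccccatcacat
Ybx3: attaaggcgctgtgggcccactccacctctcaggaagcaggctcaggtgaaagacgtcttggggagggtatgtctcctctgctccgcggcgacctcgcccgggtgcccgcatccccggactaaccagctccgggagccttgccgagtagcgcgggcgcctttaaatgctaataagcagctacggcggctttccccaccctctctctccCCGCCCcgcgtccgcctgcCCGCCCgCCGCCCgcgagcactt
Capitals mark GC boxes (GGGCGG or its complement CCGCCC) in both and a CCAAT box (as ATTGG) in Sox2.

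**Figure D1:**
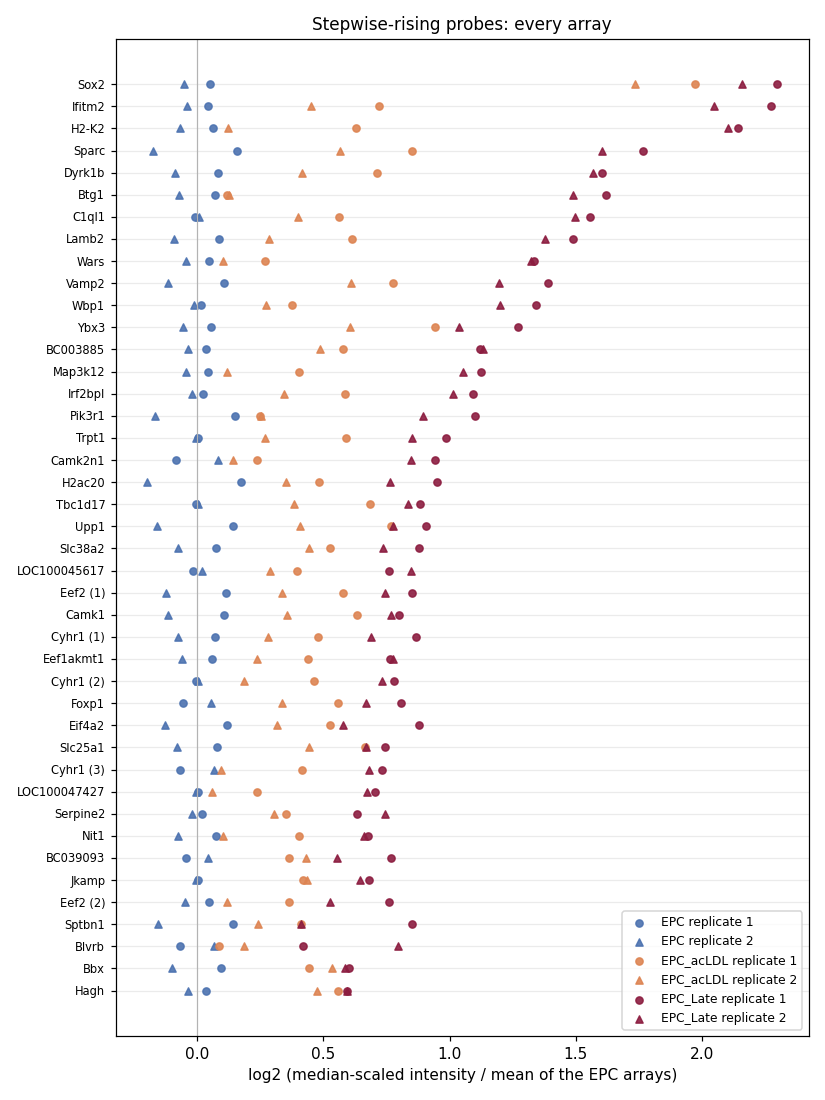
Every array of the 42 stepwise-rising probes, as log2 of the median-scaled intensity over the mean of the EPC arrays, sorted by EPC_Late over EPC; circles are replicate 1, triangles replicate 2, and numbers in brackets tell apart probes of 1 gene. Sox2 has its EPC_acLDL arrays near EPC_Late, while Btg1, Wars and H2-K2 have theirs near EPC.

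Across the set, the EPC_Late mean was 1.51 to 4.69 times the EPC mean, with a median of 1.77. Sox2, Ifitm2, H2-K2 and Sparc reached 3-fold, 16 reached 2-fold and 26 lay between 1.5-fold and 2-fold. After background removal 10 members reached 3-fold, Wars, Dyrk1b, Btg1, Lamb2, C1ql1 and Map3k12 besides these, and 35 reached 2-fold. The fold moved by more than 1.5 times for Wars (to 5.32), H2-K2 (6.85), Trpt1 (2.91), Slc38a2 (2.89), Eef1akmt1 (2.87) and Serpine2 (2.48). The members were about as bright in EPC as the other detected probes, with median levels of 3.40 and 3.78 times the array median. The steps between lines were often narrow: for 12 members the lower EPC_acLDL array was less than 1.1 times the higher EPC array, for 10 the lower EPC_Late array was less than 1.1 times the higher EPC_acLDL array, and 21 had at least 1 such narrow step. The narrowest was that of Sptbn1, the beta spectrin of the membrane skeleton, with 2.693 on an EPC_acLDL array and 2.694 on an EPC_Late array.

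At the limit of 1.5-fold, the members just inside were Hagh (1.51), a glyoxalase that clears methylglyoxal products, Bbx (1.51), an HMG-box transcription factor, Blvrb (1.54), a flavin and biliverdin reductase, and Sptbn1 (1.57). Just outside, with the arrays in the same order, were Mid1ip1 (1.499), Plpp5 (1.49), the peroxide-reducing enzyme Prdx2 (1.49) and Med30 (1.47), a Mediator subunit. No gap in the values separates these groups. In all, 71 probes detected on every array had an EPC_Late mean of at least 1.5 times the EPC mean: besides the 42 members, 15 had line means in the same order but overlapping arrays, and in 14 the EPC_acLDL mean did not lie between the others.

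The same limits were applied to each of the 6 possible orders of the 3 lines. The order EPC, EPC_acLDL, EPC_Late was met by 58 probes without the fold limit (6.43% of 902) and by the 42 with it. The opposite order, falling at each step, was met by 21 probes and by 12 at 1.5-fold. More probes (114, and 83 at 1.5-fold) had EPC_Late lowest and EPC_acLDL highest, and 54 (19 at 1.5-fold) ran EPC, EPC_Late, EPC_acLDL. With EPC_acLDL lowest there were 6 and 4 probes, and 1 at 1.5-fold in each case. Beside these counts stands a shift of the 902 detected probes: in the median-scaled values their median was 0.16 higher (log2) in EPC_acLDL than in EPC and 0.16 lower in EPC_Late than in EPC_acLDL, and after background removal these medians were -0.01 and 0.01.

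The members' own medians stood at 0.43 for the first step and 0.44 for the second in median-scaled values, against the shifts just given. After background removal they were 0.32 and 0.90, with 1.25 from EPC to EPC_Late, where the median over all 902 detected probes was 0.00. The first step was above 0 for 38 members, and the full order of the 6 arrays was kept by 33. The 9 that lost the order were Btg1, Wbp1, Pik3r1, Camk2n1, H2ac20, LOC100047427, Blvrb, 1 of 2 Eef2 probes and 1 of 3 Cyhr1 probes, each with its EPC_acLDL and EPC arrays overlapping or, for H2ac20, meeting at an equal value.

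**Figure D2:**
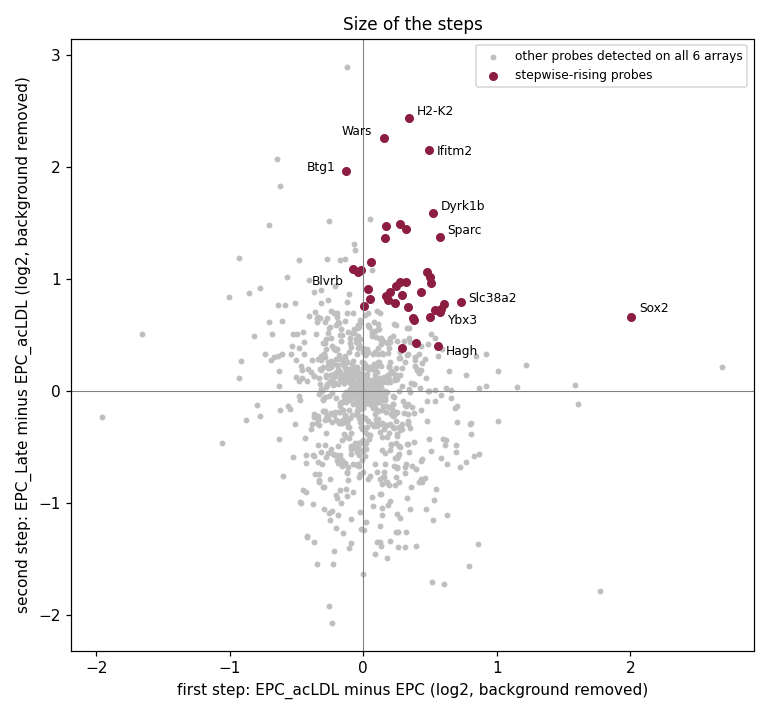
Background-removed log2 difference from EPC to EPC_acLDL (horizontal axis) and from EPC_acLDL to EPC_Late (vertical axis) for the 902 probes detected on all 6 arrays, with the 42 members in dark red. Among the members Sox2 stands alone at 2.01 on the horizontal axis, while H2-K2, Wars, Ifitm2 and Btg1 lie highest among the members on the vertical axis and close to 0 to 0.5 on the horizontal one.

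The share of the log2 rise that lay between EPC and EPC_acLDL differed widely among the members. In median-scaled values it ran from 7.83% to 87.1% with a median of 46.0%, and 16 members had more than 50% of their rise in that step. The largest shares were those of Hagh (87.1%), Sox2 (83.4%), Bbx (82.3%), Slc25a1 (78.9%) and Upp1 (71.2%), and the smallest those of Btg1 (7.83%), Wars (14.1%), H2-K2 (18.7%), Camk2n1 (21.2%) and LOC100047427 (21.8%). After background removal the median share was 23.9%, and only Sox2 (75.1%) and Hagh (58.1%) had more than 50% of the rise in the step to EPC_acLDL. Of the 16 members at 2-fold or more, 3 had more than 50% of the rise in that step before background removal: Sox2, Ybx3 and Vamp2.

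**Figure D3:**
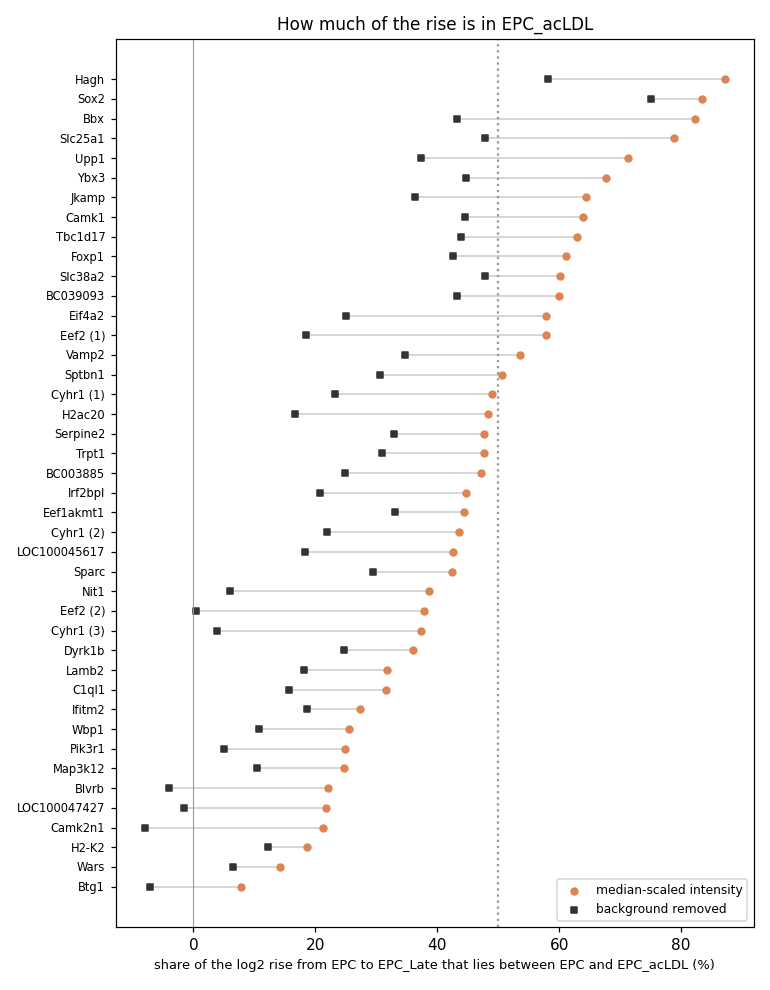
Percentage of the log2 rise from EPC to EPC_Late that lies between EPC and EPC_acLDL, for each of the 42 members, from median-scaled intensities (orange circles) and after background removal (dark squares). Every square lies to the left of its circle, and only Sox2 and Hagh stay to the right of the dotted line at 50%.

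Genes of transcription and growth control (Sox2, Ybx3, Foxp1, Bbx, Btg1, Irf2bpl and the histone gene H2ac20) were 1.51-fold to 4.69-fold higher in EPC_Late than in EPC. Ybx3, a cold-shock domain protein that binds DNA and mRNA, read 8.79 and 8.14 in EPC, 16.3 and 12.9 in EPC_acLDL and 20.4 and 17.4 in EPC_Late, in multiples of the array median. Its lines did not overlap, though the lower EPC_Late array was only 1.07 times the higher EPC_acLDL array. The means differed 2.23-fold between EPC_Late and EPC, and 67.8% of the log2 rise was in the first step. After background removal that share was 44.8%, with steps of 0.57 and 0.70 (SE 0.12 each).

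Btg1, an antiproliferative protein that recruits mRNA deadenylases, had the opposite timing. Its values were 5.22 and 4.72 in EPC, 5.40 and 5.42 in EPC_acLDL, and 15.3 and 14.0 in EPC_Late. EPC and EPC_acLDL were nearly level and EPC_Late stood alone, 2.94-fold above EPC. After background removal the first step was -0.13 (SE 0.14) and the second 1.96 (SE 0.14), so that the order of the early lines was within the error. Foxp1, a forkhead repressor, was 1.67-fold higher in EPC_Late than in EPC, Irf2bpl, an IRF2-binding protein relative, 2.07-fold and H2ac20, a core histone H2A whose probe may also read near-identical histone genes, 1.82-fold.

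For Btg1 and for Ifitm2, a pair of members with most of the rise in EPC_Late, the bases before the RefSeq start are chr10:96616751-96617000 on the plus strand and chr7:140955962-140956211 on the minus strand (GRCm38.p6).
Btg1: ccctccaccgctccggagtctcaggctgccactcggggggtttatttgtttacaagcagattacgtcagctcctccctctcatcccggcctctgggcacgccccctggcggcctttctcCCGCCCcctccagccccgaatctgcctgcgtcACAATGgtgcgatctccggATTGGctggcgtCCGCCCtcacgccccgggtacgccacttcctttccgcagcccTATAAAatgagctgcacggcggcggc
Ifitm2: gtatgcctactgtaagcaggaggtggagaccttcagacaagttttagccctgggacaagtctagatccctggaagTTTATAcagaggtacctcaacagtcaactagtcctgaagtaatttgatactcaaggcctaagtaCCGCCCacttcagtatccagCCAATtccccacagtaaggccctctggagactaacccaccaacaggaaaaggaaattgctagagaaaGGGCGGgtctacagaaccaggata
Capitals mark GC boxes, CCAAT boxes and TATA boxes (TATAAA or TTTATA) in both, and in Btg1 also the SOX letters CATTGT (as ACAATG).

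Interferon-induced and MHC class I genes gave 3 members, Ifitm2, H2-K2 and Wars, with 2.51-fold to 4.48-fold higher means in EPC_Late than in EPC and 14.1% to 27.3% of the rise in the first step. After background removal the folds were 5.32 for Wars, 6.23 for Ifitm2 and 6.85 for H2-K2, with shares of 6.5%, 18.7% and 12.3%. Ifitm2, an interferon-induced membrane protein that hinders virus entry, read 3.32 and 3.13 in EPC, 5.31 and 4.41 in EPC_acLDL, and 15.6 and 13.3 in EPC_Late. The EPC_Late arrays stood far above all others. Its background-removed steps were 0.49 (SE 0.12) and 2.15 (SE 0.12).

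H2-K2, an MHC class I gene listed on the array under an older predicted name, read 2.45 and 2.24 in EPC, 3.63 and 2.55 in EPC_acLDL and 10.3 and 10.1 in EPC_Late. The EPC_acLDL arrays differed more from each other than EPC_acLDL and EPC did at their nearest arrays, and EPC_Late was 4.35-fold above EPC. Probes of the MHC class I and Ifitm families may read several near-identical genes, so the assignment to H2-K2 and Ifitm2 is uncertain. Wars, the tryptophanyl-tRNA synthetase, which interferon gamma induces, read 1.65 and 1.55 in EPC, 1.92 and 1.72 in EPC_acLDL, and 4.04 and 4.0 in EPC_Late. Its EPC_Late arrays were nearly equal and 2.51-fold above EPC.

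Other genes of that kind, in a list made after values were seen and so given without a test, were mostly not measurable: of 55 probes for 34 interferon-response and MHC class I genes, 45 lay above background on no array. Irf1, the interferon-induced transcription factor that drives MHC class I genes, met the detection limit on 3 and 5 of 6 arrays with its 2 probes. They read 1.52 and 1.32 in EPC, 1.80 and 1.60 in EPC_acLDL and 4.16 and 3.69 in EPC_Late for the one, and 1.71 and 1.42, 1.98 and 1.69, and 3.33 and 3.46 for the other. The arrays of the one stood in the order of the set, those of the other overlapped between the early lines, and the background-removed differences from EPC to EPC_Late were 2.91 (SE 0.18) and 2.16 (SE 0.21). Irf2, Tapbp and Ifit2 differed from EPC to EPC_Late by 0.05 (SE 0.14), 0.08 (SE 0.19) and 0.01 (SE 0.24). Psmb8, a subunit of the immunoproteasome, was above background on 2 of 6 arrays (detection p-value below 0.05). The fit took probes with both arrays of some line above background, so Psmb8 entered it through a single line. Its highest readings were those of EPC_Late (1.417 and 1.365). Because the filter itself can favor such a rise, no difference is given for Psmb8.

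Secreted and matrix proteins gave 4 members, Sparc, C1ql1, Lamb2 and Serpine2, 1.61-fold to 3.22-fold higher in EPC_Late than in EPC, with shares of 31.6% to 47.6% in the first step. After background removal these shares were 15.6% for C1ql1, 18.2% for Lamb2, 29.5% for Sparc and 32.9% for Serpine2. Sparc, a collagen-binding matricellular protein, read 6.27 and 4.97 in EPC, 10.1 and 8.31 in EPC_acLDL and 19.1 and 17.1 in EPC_Late. The lines were well apart at each step, and the background-removed steps were 0.57 (SE 0.12) and 1.37 (SE 0.12). The other mesenchyme and smooth muscle markers stayed near the background: the mean over their probes without Sparc was 1.07 to 1.1 times the array median in EPC, 1.12 to 1.16 in EPC_acLDL and 1.1 to 1.13 in EPC_Late, and Col1a1, Col3a1, Tagln, Pdgfra, Pdgfrb and Thy1 were above background on no array.

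Lamb2, the beta 2 chain of basement membrane laminins, read 4.59 and 4.07, then 6.61 and 5.27, then 12.2 and 11.2, and C1ql1, a secreted protein of the C1q family, read 5.38 and 5.45, then 7.99 and 7.13, then 15.9 and 15.3, in the order EPC, EPC_acLDL, EPC_Late. Both had a wide step to EPC_Late and a smaller one before it. Serpine2, the secreted inhibitor of thrombin and urokinase, was near the background (1.69 and 1.64 in EPC, 2.58 and 2.79 in EPC_Late). Of 42 probes for 31 basement membrane and matrix genes, a list likewise made after values were seen, 37 were above background on no array.

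Kinases and their regulators gave 5 members, with ratios of EPC_Late to EPC from 1.72 to 2.999. Dyrk1b, a kinase that holds cells in quiescence, read 2.77 and 2.46 in EPC, 4.29 and 3.49 in EPC_acLDL, and 7.95 and 7.75 in EPC_Late. The 3 lines did not overlap, with EPC_Late far above the others, and the steps after background removal were 0.52 (SE 0.11) and 1.59 (SE 0.11). Map3k12, a kinase upstream of JNK, was 2.13-fold higher in EPC_Late than in EPC, and Pik3r1, the regulatory subunit of phosphoinositide 3-kinase, 2.001-fold. Camk1, a calcium and calmodulin dependent kinase, was 1.72-fold higher, with 63.9% of the rise in the first step in median-scaled values and 44.5% after background removal. Camk2n1, an inhibitor of CaM kinase II, was 1.86-fold higher, and its first step after background removal was -0.08 (SE 0.18).

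**Figure D4:**
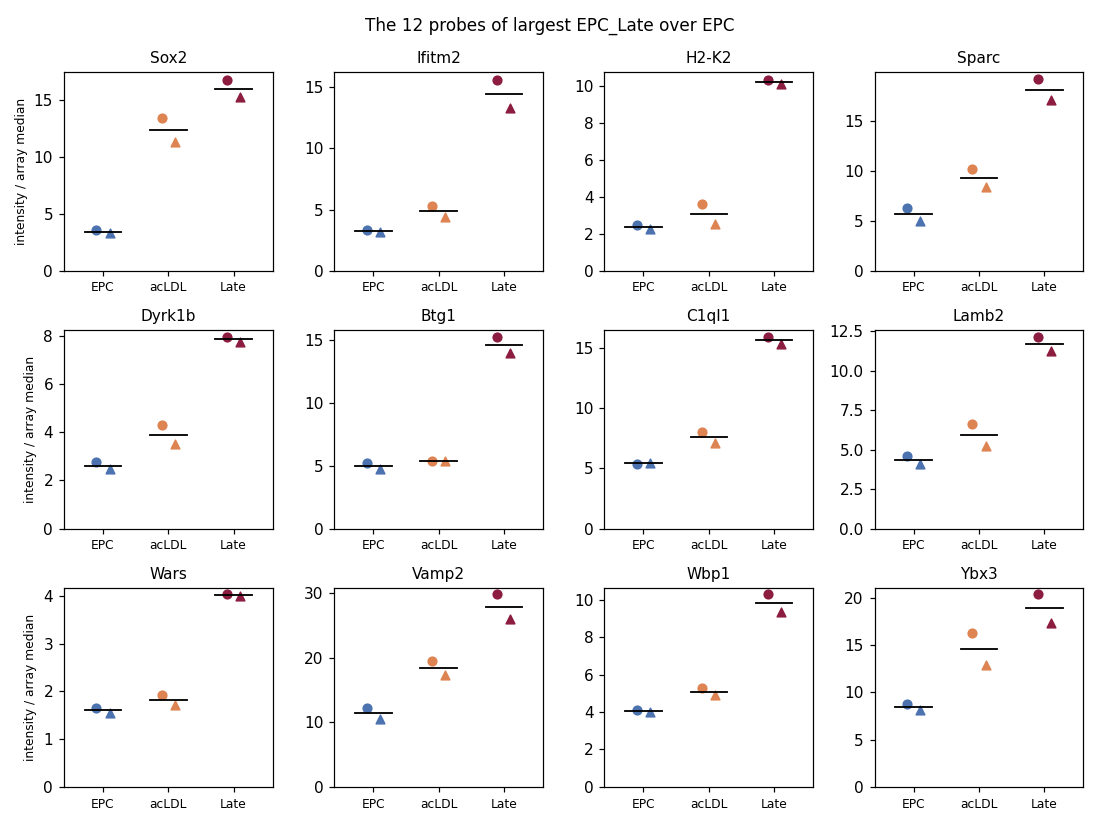
Median-scaled intensity on each array for the 12 members of largest EPC_Late over EPC, on linear axes that start at 0; circles are replicate 1, triangles replicate 2 and bars the mean of 2 arrays. Sox2 and Ybx3 have their wider step below EPC_acLDL, and the other 10 have it below EPC_Late.

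Translation and RNA genes gave 5 member probes of 4 genes, 1.57-fold to 1.89-fold higher in EPC_Late than in EPC. Eif4a2, an RNA helicase of the cap-binding complex, was the brightest member, at 53.6 and 45.3 in EPC, 71.3 and 61.6 in EPC_acLDL and 91.0 and 73.8 in EPC_Late. The EPC_Late arrays lay as far from each other as the EPC_Late and EPC_acLDL means did, and the lower EPC_Late array was 1.04 times the higher EPC_acLDL array. Eef2, the factor that moves the ribosome along mRNA, had 2 probes in the set, at 1.74-fold and 1.57-fold. Eef1akmt1, which methylates the elongation factor eEF1A, was 1.71-fold higher, and Trpt1, a tRNA phosphotransferase, 1.89-fold.

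Among transport and membrane genes, Vamp2, a SNARE protein of vesicle fusion, read 12.2 and 10.5 in EPC, 19.4 and 17.3 in EPC_acLDL, and 29.8 and 26.0 in EPC_Late. No arrays overlapped. In median-scaled values 53.6% of the log2 rise was in the first step, and after background removal the second step (0.96, SE 0.11) was larger than the first (0.51, SE 0.11). Slc38a2, a neutral amino acid transporter, was 1.75-fold higher in EPC_Late than in EPC, Slc25a1, the mitochondrial citrate carrier, 1.63-fold, Tbc1d17, a Rab GTPase activating protein, 1.81-fold and Sptbn1 1.57-fold. The enzymes were Upp1, a uridine phosphorylase (1.79-fold), Nit1, an amidase (1.59-fold), Blvrb and Hagh. The rest were Wbp1, a WW domain binding protein (2.41-fold), Cyhr1, a cysteine and histidine rich protein (1.63-fold to 1.72-fold in 3 probes), Jkamp, a JNK-associated membrane protein (1.58-fold), and 4 names without a match in the gene table: BC003885 (2.18-fold), LOC100045617 (1.75-fold), LOC100047427 (1.61-fold) and BC039093 (1.59-fold).

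Other probes for the same genes give a look at these genes that the rule did not use, on the same arrays. There were 35 such probes for 20 of the genes. Of these, 27 were above background on no array, 7 on some arrays or at a weaker limit, and 1 met the detection limit on all 6. For 13 of the genes no other probe was above background on any array, Sox2, Sparc, Btg1 and Dyrk1b included. The other Sox2 probe read 1.03 and 0.96 in EPC, 1.04 and 0.96 in EPC_acLDL, and 0.97 and 0.99 in EPC_Late. The values of these genes thus rest on their member probes alone. The other probe for Ybx3 read 1.39 and 1.38 in EPC, 2.05 and 1.999 in EPC_acLDL, and 2.67 and 2.63 in EPC_Late, in the same order without overlap. That for Trpt1 read 1.40 and 1.41, then 1.73 and 1.72, then 2.27 and 2.42, again in order.

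The other probe for Wars read 1.57 and 1.64 in EPC, 1.53 and 1.63 in EPC_acLDL and 2.80 and 2.87 in EPC_Late, high in EPC_Late with the early lines overlapping. The other probes for Slc38a2 went against the member probe: one, detected on all 6 arrays, read 1.93 and 1.84 in EPC, 2.01 and 2.14 in EPC_acLDL and 1.94 and 1.79 in EPC_Late, and its background-removed difference from EPC to EPC_Late was -0.07 (SE 0.17) where that of the member was 1.53 (SE 0.13). The third, dimmer probe was at 0.02 (SE 0.11). For Jkamp the other probe was at -0.42 (SE 0.12), the member at 1.02 (SE 0.14). Probes of these genes disagreed. The other probes of Map3k12 and Eef2, above background on 4 of 6 arrays, were at 0.11 (SE 0.19) and 0.42 (SE 0.18).

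**Figure D5:**
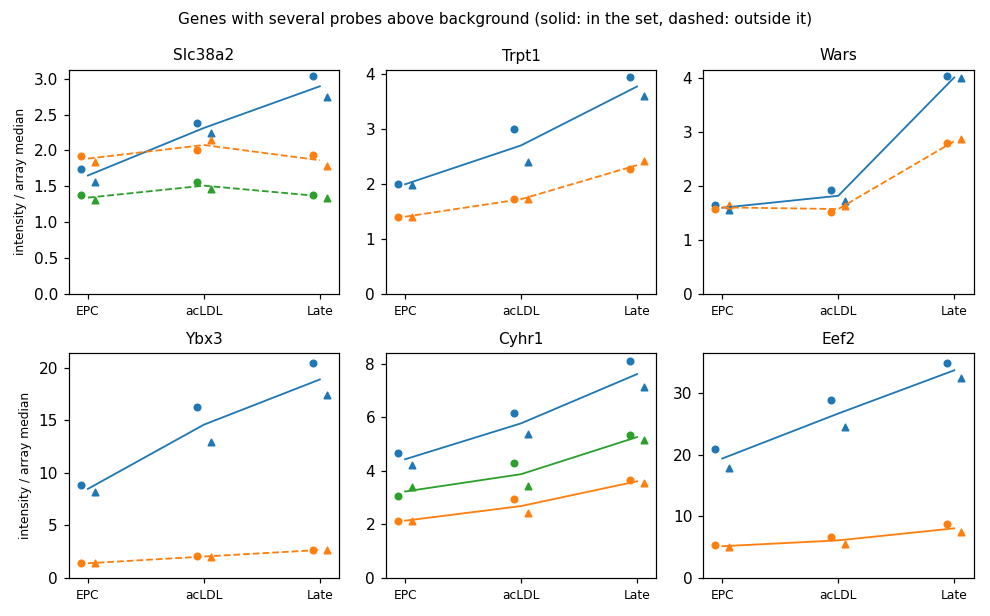
Median-scaled intensity per array (circles replicate 1, triangles replicate 2, lines through the means) for genes with several probes above background, solid for probes in the set and dashed for probes outside it, on axes that start at 0. The dashed probes of Trpt1, Ybx3 and Wars end highest in EPC_Late, and those of Slc38a2 do not.

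Promoter windows of RefSeq (300 bases, from 250 before to 50 after the start, GRCm38.p6) were given for 26 of the 39 genes, 36 windows in all. GC boxes were in 26 of the 36 (72.2%), against 65.1% of 805 windows of the other genes detected on all 6 arrays and 35.7% of all 32851 windows. The G and C content of the windows had medians of 62.8%, 61.3% and 52.7% in the same sets. CCAAT boxes were in 30.6% (39.1% and 37.4%), TATA boxes in 13.9% (8.20% and 13.6%), the E-box CACGTG in 11.1% (10.2% and 7.15%), the SOX letters CATTGT in 11.1% (8.45% and 12.6%), and the ETS letters CCGGAAG in 1 window, that of Jkamp (2.78%, against 17.9% and 8.86%). The remaining letters, TGACGTCA (CRE), TGACTCA (AP-1), TTTCCCGC (E2F), TGACNNNGC (antioxidant response element) and TCACNCCAC (sterol response element), were in 2, 2, 0, 6 and 1 windows, and both strands were read throughout. The Lamb2 and Sparc windows held none of the letters. A match describes the letters only and is no sign that a factor binds.

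Tests were made on probes outside the set, from 25 gene lists, in a limma fit of all 2333 probes that both arrays of some line showed above background. Over all of these, 1.93% were higher and 1.37% lower in EPC_acLDL than in EPC, 9.34% were higher and 11.5% lower in EPC_Late than in EPC_acLDL, and 10.9% were higher and 13.0% lower in EPC_Late than in EPC (adjusted p below 0.05). The lists held 285 tested probes outside the set, of which 6 were higher and 5 lower, 20 higher and 66 lower, and 19 higher and 69 lower in the same comparisons. More list probes fell than rose in EPC_Late, which also held over all probes tested. The median difference of the list probes from EPC to EPC_Late was -0.07, against -0.002 over all probes tested outside the set. The lists were chosen with earlier results of these data known, so that the calls in them are no independent test. Without the members chosen for rising, the shares over the 2291 other tested probes were 1.88% higher and 1.4% lower, 7.9% and 11.7%, and 9.3% and 13.2%. The list counts were smaller with single arrays left out: the 11 calls in EPC_acLDL against EPC were 5 and 4 without an EPC array, 3 and 4 without an EPC_acLDL array and 7 and 4 without an EPC_Late array. The 86 calls in EPC_Late against EPC_acLDL were 36 and 35 without an EPC_acLDL array and 48 and 49 without an EPC_Late array, and the 88 in EPC_Late against EPC were 57 and 56 without an EPC_Late array.

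Translation factors were the list with most members, 4 of its 18 probes detected on all 6 arrays (the Eef2 pair, Eif4a2 and Eef1akmt1). Of its 22 tested probes outside the set, 4 were higher and 5 lower in EPC_Late than in EPC, and 5 higher and 7 lower than in EPC_acLDL, with none called between the early lines. Over the 2291 tested probes outside the set, 9.3% were higher and 13.2% lower in EPC_Late than in EPC. Against EPC_acLDL these shares were 7.9% and 11.7%. Eef1a2, the tissue-restricted form of the elongation factor eEF1A, was the highest riser: the probe of its largest change read 6.10 and 5.33 in EPC, 6.37 and 5.30 in EPC_acLDL and 12.8 and 11.1 in EPC_Late, a background-removed rise of 1.26 (SE 0.11, limma adjusted p = 0.00078) against EPC. A dimmer Eef1a2 probe, among the 5 called higher than in EPC_acLDL, was above background in EPC_Late only. It entered the fit through that line, where it was high. Eif3b, a subunit of the initiation factor eIF3, fell by 1.38 (SE 0.11, limma adjusted p = 0.00051), from 9.88 and 8.36 in EPC to 4.31 and 3.82 in EPC_Late. Eif4a1, a close relative of Eif4a2, fell by 1.28 (SE 0.22, limma adjusted p = 0.0086), and Eif5a fell by 1.11 from EPC_acLDL (SE 0.15, limma adjusted p = 0.0039).

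Solute carriers held 2 members, Slc38a2 and Slc25a1. Of 38 tested probes outside the set, 2 were higher and 1 lower in EPC_Late than in EPC. Against EPC_acLDL, 1 was higher and 2 were lower in EPC_Late. In EPC_acLDL, 0 were higher and 1 lower than in EPC. Over the 2291 tested probes outside the set, the shares in the same order were 9.3% and 13.2%, 7.9% and 11.7%, and 1.88% and 1.4%. Slc35b3, a transporter of the Golgi, rose by 1.01 against EPC (SE 0.12, limma adjusted p = 0.0019) and Slc45a2 by 0.49 (SE 0.13, limma adjusted p = 0.036), while Slc30a1, a zinc exporter, fell by 0.57 (SE 0.13, limma adjusted p = 0.022). From EPC_acLDL to EPC_Late Slc35b3 rose by 0.47 (SE 0.12, limma adjusted p = 0.037), while Slc35f2 fell by 0.815 (SE 0.14, limma adjusted p = 0.011). Slc39a7, a zinc transporter, was lower in EPC_Late (limma adjusted p = 0.028) but not above background in EPC_Late or EPC, so that no fold is given for it. From EPC to EPC_acLDL Slc12a9 fell by 0.67 (SE 0.13, limma adjusted p = 0.048). The Slc35b3 arrays read 1.61 and 1.59 in EPC, 2.15 and 1.96 in EPC_acLDL and 2.20 and 2.21 in EPC_Late, in the order of the set.

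The list of stem cell factors held Sox2 as its only member, and most of the rest could not be measured: of 28 probes for 19 genes, 24 were above background on no array, Nanog, Klf4, Myc and Lin28a included. Of 3 tested probes outside the set 1 was called, Nr6a1, an orphan nuclear receptor that represses Pou5f1. Pou5f1 was itself above background on all 6 arrays and was not called: its differences were 0.41 (SE 0.15, limma adjusted p = 0.21) from EPC to EPC_acLDL and 0.30 (SE 0.15, limma adjusted p = 0.23) from EPC to EPC_Late. Nr6a1 was named after its value was seen. It read 1.56 and 1.62 in EPC, 2.34 and 2.1 in EPC_acLDL and 1.999 and 1.94 in EPC_Late, and was higher by 0.76 in EPC_acLDL (SE 0.14, limma adjusted p = 0.044) and by 0.72 in EPC_Late (SE 0.14, limma adjusted p = 0.011) than in EPC. Its EPC_acLDL arrays were the highest, unlike those of Sox2. Of the 3 tested mesenchyme probes outside the set, Col1a2, a fibrillar collagen chain also named after its value was seen, was higher by 0.43 in EPC_Late than in EPC (SE 0.12, limma adjusted p = 0.047), and none was called in the other comparisons. The list of histones and high mobility group genes held H2ac20 as its only member. Of its 22 tested probes outside the set, 1 was higher and 5 lower in EPC_Late than in EPC (9.3% and 13.2% over all such probes). Against EPC_acLDL, 4 were higher and 2 lower (7.9% and 11.7%). The 1 called higher than in EPC was above background in EPC_Late only.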

How the data were processed

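RNA of EPC, EPC_acLDL and EPC_Late (2 arrays each) was measured on Illumina MouseRef-8 v2.0 arrays. The authors summarized the beads per probe and deposited the average intensity, on a linear scale and without normalization, and a detection p-value, the share of negative controls at least as bright. Their later analysis in GeneSpring was not repeated. File names of genes were matched to a RefSeq table of GRCm38.p6: of 25697 probes, 20736 matched a symbol and 3841 a synonym, and 1120 kept the file's name.

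The set was found on intensities divided by the array median. Members and gene lists were chosen with earlier results of these data known. Background was removed with neqc (offset 16) in limma 3.58.1 under R 4.3.3. The 2333 probes with detection p-values under 0.05 for both arrays of any line entered a fit of the 6 arrays (lmFit, eBayes) with no covariate and Benjamini-Hochberg adjustment and a threshold of 0.05. The steps were tested on simulated data. The number of arrays limits the precision.

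The rule for naming took the 12 members of largest rise, Sox2, the 5 largest and 5 smallest first-step shares, the 4 probes on each side of the fold limit, members in a list and genes with several member probes. Array values are printed for some of these only. In lists with at least 2 members, up to 2 other probes each way were named. Members without printed array values are given by their fold. Alternatives were other scalings, detection and fold limits, normexp with an offset of 50, a 75th percentile shift, detection filters, limma-trend, the methods' t-test, the replicate number as a block, and each array left out.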

Additional observations from a re-analysis of the deposited data

How the results depend on the processing

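The count of 42 probes was 63 without scaling, 42 with 75th percentile scaling, 53 with quantile normalization, 53 at a detection p-value below 0.05, 36 at a detection p-value of 0, 53 at 1.3-fold and 57 with line means alone in order. It was 71 after background removal, 33 of the members among them, and 16 at 2-fold. Leaving out 1 array gave 39 to 58, and 35 members were kept without each array in turn. Of the 42, 33 were kept under all 4 other scalings. The median log2 difference from EPC to EPC_Late (0.83) was 1.25 after background removal and 0.93 with quantile normalization, and 0.79 to 0.89 with 1 array left out. The median share of the rise in the first step (46.0%) was 23.9% after background removal and 21.7% with quantile normalization.

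The list probes called outside the set in EPC_acLDL against EPC (11) depended most on the setting: 19 with the 75th percentile shift, 46 with the background left in, 26 with normexp and an offset of 50, 7 without a detection filter, 28 at a detection p-value below 0.01, 44 with limma-trend, 54 by the methods' t-test unadjusted, and 3 to 7 without any 1 of the 6 arrays. With the replicate block it was 7. After background removal same-numbered arrays deviated together only weakly (correlations 0.08, 0.02 and 0.03), so the numbers were not taken to pair the arrays, and the replicate block gave 83 and 85 in the other comparisons. EPC_Late against EPC_acLDL (86) gave 35 to 76 without 1 array, lowest without either EPC_acLDL array (36 and 35) and 48 and 49 without either EPC_Late array. EPC_Late against EPC (88) gave 56 to 71, with 57 and 56 without either EPC_Late array. The methods' t-test after adjustment called 0 in each of the 3 comparisons, with 54, 98 and 88 unadjusted. Signal over background limited what could be measured: 902 of 25697 probes met the detection limit on all 6 arrays. The causes of these differences were not tested.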
